A study of Mus musculus with 6 samples.

Results

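The genes described here are the mouse zinc finger genes whose symbol is Zfp followed by digits alone. The count tables held 340 such symbols among 23284 genes. A gene was included where its raw counts averaged at least 3 CPM (counts scaled to a common library total) over the 6 libraries, which 279 genes did. The rule used the level over all libraries and no difference between them. All 279 passed the low-count filter of the test, which left 13039 genes of the whole table.

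MIN6, the line sequenced, was derived from a mouse insulinoma and keeps many features of beta cells, including insulin secretion. For 3 libraries the cells had been treated with an antisense oligonucleotide (ASO) against Paupar, a long noncoding RNA made next to the Pax6 gene, and these are called Paupar KD. For the other 3 libraries the cells had been given a control ASO, and these are called Control KD. The labels give no dose, no time and no word on whether the replicates were separate cultures, so a p-value here reflects how far these libraries differ from each other, and that variation may be technical only. All 6 libraries are from this 1 cell line.

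Most proteins of this name carry C2H2 zinc fingers, short loops in which 2 cysteines and 2 histidines hold a zinc ion, and arrays of such fingers read DNA. Many also carry a KRAB domain at the start of the protein, which binds the corepressor KAP1 (encoded by Trim28). KAP1 brings the histone methyltransferase SETDB1, HP1 proteins and deacetylases, and so silences retroelements and genes near the bound site. KRAB zinc finger genes lie in tandem clusters and are known for their part in silencing retroelements in embryonic cells. The name Zfp was given early and loosely, however, and it also covers RNA-binding, LIM-domain and ubiquitin ligase proteins.

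The parts of these proteins that the name refers to are shown for the genes of smallest p in each direction whose longest annotated protein has a finger followed directly by the conserved linker. The stretches are coding DNA on mouse build mm9, written 5′ to 3′ along the gene, and they are shown because they let a reader see how alike and how different the fingers are. In the 6 fingers the capitals mark the codons of the 2 cysteines and the 2 histidines that hold the zinc, and the lower-case bases between them include the residues that touch DNA. The finger of Zfp334 lies at chr2:165206833-165206910 on the minus strand, that of Zfp790 at chr7:30613586-30613663 on the plus strand and that of Zfp146 at chr7:30947338-30947415 on the minus strand. The finger of Zfp944 lies at chr17:22476602-22476679 on the minus strand, that of Zfp930 at chr8:71751947-71752024 on the plus strand and that of Zfp62 at chr11:49029045-49029122 on the plus strand.
Zfp334: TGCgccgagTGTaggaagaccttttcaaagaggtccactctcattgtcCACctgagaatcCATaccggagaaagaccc
Zfp790: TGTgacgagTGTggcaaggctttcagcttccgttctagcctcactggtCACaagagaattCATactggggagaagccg
Zfp146: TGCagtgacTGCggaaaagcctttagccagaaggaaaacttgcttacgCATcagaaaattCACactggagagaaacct
Zfp944: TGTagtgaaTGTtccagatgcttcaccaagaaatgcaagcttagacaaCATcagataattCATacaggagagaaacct
Zfp930: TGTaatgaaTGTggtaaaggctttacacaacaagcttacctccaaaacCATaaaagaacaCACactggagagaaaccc
Zfp62: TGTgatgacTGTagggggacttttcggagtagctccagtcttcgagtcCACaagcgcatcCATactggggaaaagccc
Each stretch spans 78 bases, and the bases after the last histidine codon encode the linker that joins 1 finger to the next.

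Of these genes, Zfp334, Zfp944 and Zfp930 have a KRAB-A box whose core lies in 1 exon, and it is shown because the KRAB box is what separates the largest structural class below from the rest. The stretches lie at chr2:165208740-165208850 on the minus strand for Zfp334, at chr17:22477935-22478045 on the minus strand for Zfp944 and at chr8:71750257-71750367 on the plus strand for Zfp930. Each encodes 37 residues, and the capitals mark the codons of the 18 residues that are identical in the 3 proteins.
Zfp334: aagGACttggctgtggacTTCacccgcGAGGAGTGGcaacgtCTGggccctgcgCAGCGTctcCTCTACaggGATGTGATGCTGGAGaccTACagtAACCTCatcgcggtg
Zfp944: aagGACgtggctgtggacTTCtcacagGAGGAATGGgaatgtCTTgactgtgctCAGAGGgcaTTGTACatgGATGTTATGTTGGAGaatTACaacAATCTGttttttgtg
Zfp930: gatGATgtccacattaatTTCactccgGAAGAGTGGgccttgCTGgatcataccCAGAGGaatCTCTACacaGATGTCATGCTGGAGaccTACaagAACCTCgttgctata
These boxes come from 1 gene with a higher and 2 genes with lower levels in Paupar KD, whose values are given further on.

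The libraries held between 16973622 and 28693863 counted reads, with Paupar KD replicate 1 the shallowest and Control KD replicate 3 the deepest. The Paupar KD libraries varied more among themselves than the Control KD libraries: the biological coefficient of variation estimated by edgeR within each group was 18.7% for Paupar KD and 4.97% for Control KD. Paupar was not among the symbols in the tables, so its knockdown was not measured here. Pax6 stood at 387, 417 and 389 CPM in Paupar KD and at 588, 620 and 547 CPM in Control KD. Its log2 fold change was -0.56 ± 0.09 (SE), with an adjusted p of 0.0694 in edgeR and 3.13e-06 in DESeq2. The 7 beta cell markers summed to 35177 to 53491 CPM in Paupar KD and to 29535 to 33615 CPM in Control KD. By log2 fold change 6 of them were positive and 1, Slc2a2, was negative (-0.27). Only Ins2 and Iapp were higher without overlap, as were 13.7% of all genes tested. Ins1 stood at 14318, 6461 and 5239 CPM in Paupar KD and at 6298, 6732 and 5990 CPM in Control KD. Mafa stood at 670, 260 and 222 CPM in Paupar KD and at 246, 180 and 207 CPM in Control KD. Of the mesenchymal markers, Col3a1 was at 0 in all 6 libraries, and Col1a1, Col1a2 and Pdgfrb were under 1 CPM. Of the endothelial markers, Cdh5 was at 0, and Pecam1 and Kdr were under 1 CPM. Of the blood markers, Ptprc was at 0, Cd3e was under 1 CPM, and Cd68 stood at 0.767, 1.08 and 1.46 CPM in Paupar KD and at 2.44, 2.47 and 2.48 CPM in Control KD (log2 fold change -1.13, edgeR adjusted p 0.133, DESeq2 adjusted p 0.0230). The part of these markers in the results was not tested. In bulk RNA, fewer cells of a type and less RNA per cell cannot be told apart.

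Zfp genes were expressed at low to moderate levels. The raw mean over the 6 libraries had a lower quartile of 10.4 CPM, a median of 20.5 CPM and an upper quartile of 39.3 CPM, and the highest was 329 CPM. Per kilobase of annotated exon, which allows genes to be set beside each other, the median was 5.84 CPM per kb and the highest 43.6 CPM per kb. The highest per length was Zfp367, at 42.3 CPM per kb in Paupar KD and 44.9 CPM per kb in Control KD. It was followed by Zfp664, at 39.1 and 38.7 CPM per kb in Paupar KD and Control KD. Next came Zfp445, which maintains genomic imprints, at 36.1 CPM per kb in Paupar KD and 37.4 CPM per kb in Control KD. Zfp568, a KRAB repressor of a placental Igf2 transcript, and Zfp598, a ubiquitin ligase at collided ribosomes, both averaged 32.6 CPM per kb over the 6 libraries. In all 5 of these genes the Paupar KD and Control KD libraries overlapped. Without length correction Zfp106 and Zfp91 were also among the 5 highest.

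At the low end, the genes just inside the minimum were Zfp30, Zfp786 and Zfp953, with raw means of 3.04, 3.06 and 3.06 CPM. Just outside were Zfp566, Zfp78 and Zfp69, with 2.90, 2.82 and 2.73 CPM. All 6 encode KRAB zinc finger proteins. Of the 61 genes under the minimum, 18 had no count in any library. A floor at 1 or at 10 mean CPM gave a median change of the same sign, given in the closing section.

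No Zfp gene passed an adjusted p of 0.05 between Paupar KD and Control KD in edgeR's quasi-likelihood test over all 13039 genes (0 higher and 0 lower of 279, smallest adjusted p 0.0859). In the same test 0.0383% of all genes were called higher and 0.00767% lower, so 0 of 279 is near the background. At an unadjusted p under 0.05, 10 Zfp genes were higher and 24 were lower in Paupar KD, or 14 and 17 under upper-quartile scaling. The share of all genes under upper-quartile scaling is not given here. With TMM scaling the 10 and 24 are 3.58% and 8.60% of the Zfp genes, against 9.63% higher and 8.11% lower over all genes tested. Among the 11258 tested genes that also reached 3 mean CPM, 10.2% were higher and 8.06% lower. With TMM scaling the share of Zfp genes lower in Paupar KD was thus close to the background, and the share higher was below it.

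Other settings called a few of the genes. DESeq2 called 1 Zfp gene higher, Zfp334, and 3 lower, Zfp185, Zfp238 and Zfp828, where it called 2.15% of all genes higher and 1.82% lower. limma-voom called 0 in either direction. Without Paupar KD replicate 1, edgeR called Zfp334 higher and Zfp185 lower, against 0.934% of all genes higher and 0.972% lower. Without Paupar KD replicate 3 it called 3 higher, Zfp324, Zfp334 and Zfp790, and 8 lower, against 4.65% and 5.67% of all genes. The 8 were Zfp36, Zfp143, Zfp185, Zfp238, Zfp317, Zfp609, Zfp800 and Zfp871. With DESeq2 and in both of these fits without a Paupar KD library, the share of Zfp genes called was below the share of all genes in the same direction.

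Small differences leaned to the lower side. The log2 fold change was positive for 103 and negative for 176 of the 279 genes, so 63.1% were negative, against 49.0% of all genes tested. The median log2 fold change was -0.06 for the Zfp genes and 0.01 for all genes tested, and it was negative under each of the 4 scalings tried (TMM, RLE, upper quartile and library size alone). The 5th and 95th percentiles were -0.37 and 0.27 for the Zfp genes, against -0.40 and 0.41 for all tested genes of at least 3 mean CPM. The median size of the log2 fold change, whatever its sign, was 0.117 for the Zfp genes and 0.148 for those other genes. The Zfp genes therefore lay in a narrower band than genes of at least the same minimum level, with a small shift to lower values in Paupar KD. The difference between the Zfp genes and the rest is a description and was not tested.

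**Figure D1:**
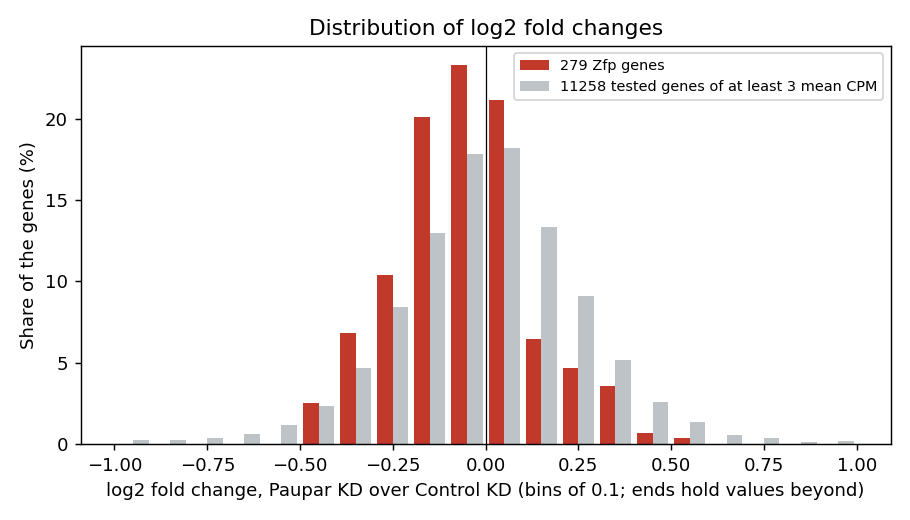
Share of the genes (%) by bin of the log2 fold change (Paupar KD over Control KD) of the 279 Zfp genes and of the tested genes of at least 3 mean CPM. The Zfp genes lie in a narrower band, with a median of -0.06, and 176 of them are below 0.

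Counting genes whose 3 Paupar KD libraries all lay on 1 side of the 3 Control KD libraries gave 20 Zfp genes higher (7.17%) and 43 lower (15.4%). Over all genes tested, 13.7% were higher and 13.3% lower by the same count. Summed, the Zfp genes took 8527, 9217 and 9151 CPM in Paupar KD, against 9353, 9477 and 9715 CPM in Control KD. The 3 Paupar KD sums all lay below the 3 Control KD sums. The lowest sum came from the shallowest library and the highest from the deepest, and the part of depth in this was not tested.

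The libraries did not contribute evenly. Paupar KD replicate 1 held the lowest value of the 6 libraries for 113 Zfp genes (40.5%), against 32.6% of all genes tested. It held the highest value for 66 Zfp genes (23.7%), against 33.2% of all genes. Control KD replicate 3 held the highest value for 74 Zfp genes (26.5%) and the lowest for 14 (5.02%), against 12.5% and 14.2% of all genes. So Paupar KD replicate 1 was more often the lowest, and Control KD replicate 3 more often the highest, for Zfp genes than for genes at large.

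As log2 differences from the Control KD mean, the Zfp genes had medians of -0.09, -0.02 and -0.05 in Paupar KD replicates 1, 2 and 3. In Control KD replicates 1, 2 and 3 the medians were -0.02, -0.00 and 0.03. The Paupar KD medians of replicates 1 and 2 thus lay further from each other than that of replicate 2 from any Control KD library. In Paupar KD replicate 1, 5 Zfp genes lay more than 1.5-fold above the Control KD mean and 21 as far below it, 9.32% in all. In replicates 2 and 3 none lay as far above it, and 2 and 3 genes lay as far below it, which are 0.717% and 1.08%. Over all genes tested the shares past 1.5-fold in replicates 1, 2 and 3 were 17.97%, 5.50% and 5.09%. The median range of a Zfp gene on the log2 scale was 0.31 over the 3 Paupar KD libraries and 0.15 over the 3 Control KD libraries.

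**Figure D2:**
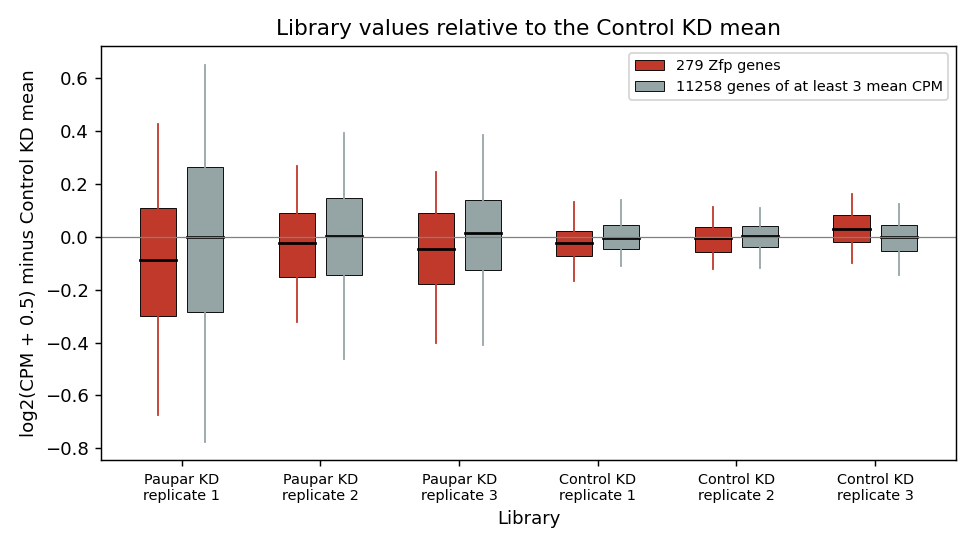
Log2(CPM + 0.5) of a library minus the mean of the 3 Control KD libraries, over the 279 Zfp genes and over the tested genes of at least 3 mean CPM (boxes are quartiles, thick lines medians, thin lines the 5th to 95th percentile). Paupar KD replicate 1 spreads the widest, and its Zfp median of -0.09 is the lowest of the 6 libraries.

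Among the genes with the smallest p on the higher side, Zfp334 came first. This KRAB protein gene with 14 finger motifs (chromosome 2, 165199764 to 165213759, minus strand) stood at 41.9, 42.1 and 40.9 CPM in Paupar KD and at 31.1, 30.3 and 30.3 CPM in Control KD. The groups were far apart beside their spread, with means of 41.6 ± 0.658 CPM in Paupar KD and 30.5 ± 0.440 CPM in Control KD (SD, n = 3 each). A ranking by p favours genes with such a gap, so the gap is no separate support. The log2 fold change was 0.45 ± 0.08 (SE), a level 1.36-fold that of Control KD, with an edgeR adjusted p of 0.0859 and a DESeq2 adjusted p of 0.00102.

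The next 3 on that side also had tight groups that did not overlap, which the ranking by p favours. Zfp64, whose human counterpart keeps the MLL gene transcribed in leukaemia cells, stood at 39.7, 38.4 and 38.8 CPM in Paupar KD and at 32.5, 28.7 and 32.1 CPM in Control KD (log2 fold change 0.32, edgeR adjusted p 0.163). Zfp862, which had no match in the annotation used for positions, stood at 18.5, 19.8 and 18.2 CPM in Paupar KD and at 14.2, 14.6 and 15.1 CPM in Control KD (0.36, adjusted p 0.164 in edgeR). Zfp870, a KRAB gene near the low end of expression, stood at 5.72, 5.67 and 5.66 CPM in Paupar KD and at 3.68, 4.34 and 3.88 CPM in Control KD. Its log2 fold change of 0.52 was the largest of the 279 and its edgeR adjusted p was 0.165.

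The other six of the 10 all lie on chromosome 7. Zfp790 (23.6, 19.2 and 16.6 CPM in Paupar KD and 14.6, 14.1 and 15.9 CPM in Control KD) and Zfp146 (59.9, 54.0 and 51.3 CPM in Paupar KD and 45.4, 46.5 and 46.6 CPM in Control KD) had groups that did not overlap, with log2 fold changes of 0.41 and 0.25. Zfp146 encodes a protein with 10 finger motifs and no KRAB box. In both genes Paupar KD replicate 1 was the highest library and replicate 3 the lowest of its group. Zfp324 stood at 43.7, 34.6 and 30.4 CPM in Paupar KD and at 27.1, 26.1 and 30.5 CPM in Control KD, so that replicate 3 lay within the Control KD range. Zfp865, Zfp428 and Zfp658 had log2 fold changes of 0.33, 0.39 and 0.36 without overlap, and the edgeR adjusted p of these 6 genes ran from 0.230 to 0.271.

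On the lower side Zfp185 and Zfp238 came first. Zfp185 (chromosome X, 70232678 to 70276882, plus strand) encodes a LIM-domain protein linked to the actin cytoskeleton, and no C2H2 motif was found in it. It stood at 71.9, 55.8 and 63.2 CPM in Paupar KD and at 88.1, 89.7 and 87.4 CPM in Control KD, and every Paupar KD library was below every Control KD library. Its log2 fold change was -0.48 ± 0.11 (SE), 0.719 of the Control KD level, with an adjusted p of 0.133 in edgeR and 0.00929 in DESeq2.

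Zfp238, also known as RP58 or Zbtb18, is a BTB-domain repressor needed for neuron development (chromosome 1, 179374792 to 179380891, plus strand). It stood at 94.5, 114 and 101 CPM in Paupar KD and at 141, 142 and 132 CPM in Control KD (log2 fold change -0.43 ± 0.10, SE, edgeR adjusted p 0.133, DESeq2 adjusted p 0.00832). Zfp828, also known as Champ1, serves chromosome alignment in mitosis (chromosome 8, 13869641 to 13881639, plus strand) and stood at 33.5, 34.5 and 31.8 CPM in Paupar KD and at 41.4, 42.5 and 42.8 CPM in Control KD (-0.35 ± 0.08, edgeR adjusted p 0.144, DESeq2 adjusted p 0.0285). In both genes every Paupar KD library was below every Control KD library.

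KRAB genes followed. Zfp944 stood at 15.2, 20.2 and 18.3 CPM in Paupar KD and at 24.0, 23.6 and 25.4 CPM in Control KD (log2 fold change -0.44, edgeR adjusted p 0.167). Zfp930 stood at 15.2, 15.02 and 14.2 CPM in Paupar KD and at 17.7, 19.6 and 19.4 CPM in Control KD (-0.36, adjusted p 0.173 in edgeR). Zfp317 stood at 21.7, 27.8 and 30.3 CPM in Paupar KD and at 35.4, 36.1 and 33.8 CPM in Control KD (-0.40, adjusted p 0.206 in edgeR). None of the 3 overlapped between the groups, which their choice by smallest p favours, and 13.3% of all genes tested were lower without overlap. In Zfp944 and Zfp317 replicate 1 was the lowest Paupar KD library.

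Zfp62, with 25 finger motifs and no KRAB box, stood at 45.5, 61.7 and 55.9 CPM in Paupar KD and at 71.7, 70.4 and 71.8 CPM in Control KD (log2 fold change -0.39, edgeR adjusted p 0.184). The last of the 10 were the KRAB genes Zfp101 and Zfp68 and the non-KRAB gene Zfp654, with log2 fold changes of -0.36, -0.24 and -0.43 and edgeR adjusted p of 0.233 to 0.246. Zfp654 stood at 51.4, 80.3 and 78.9 CPM in Paupar KD and at 92.0, 98.3 and 94.4 CPM in Control KD, and replicate 1 was far below the rest of its group. All 10 genes on the lower side had groups that did not overlap, but they were picked by smallest p, which favours such separation. Over all genes tested 13.3% were lower without overlap. Zfp68 shares exon bases with an antisense gene in the annotation, and whether the counting used strand is not given in the sources used here.

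**Figure D3:**
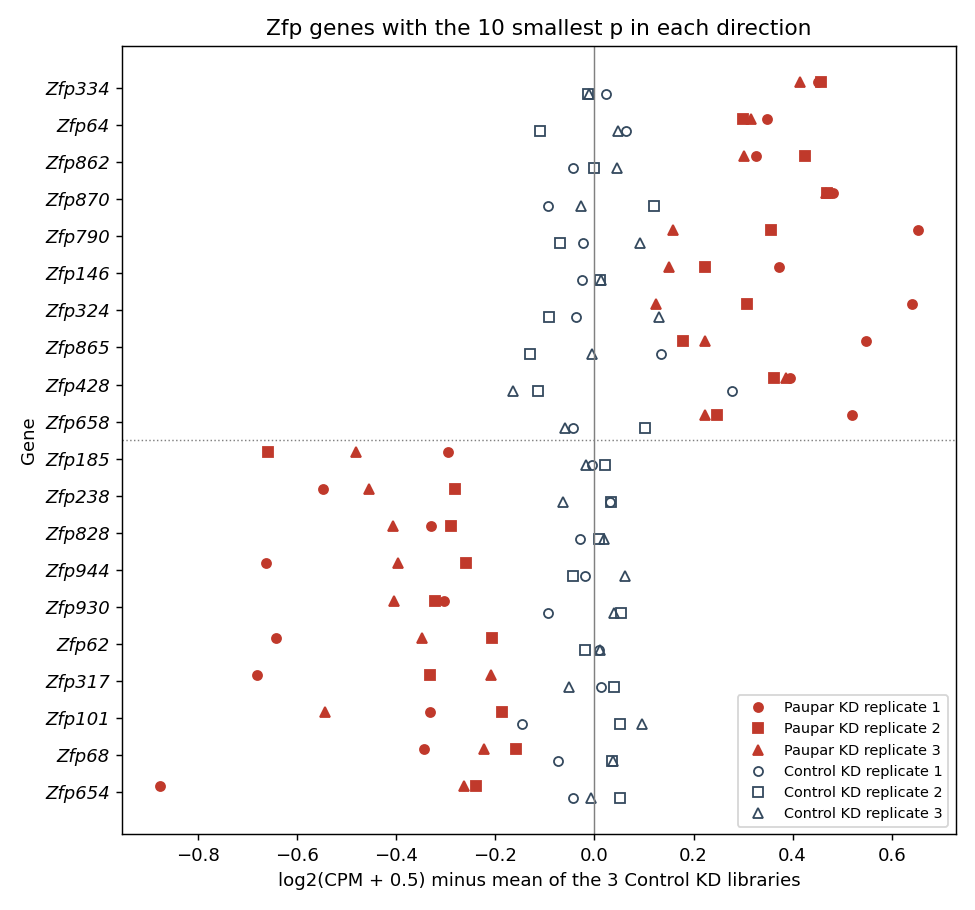
Log2(CPM + 0.5) minus the mean of the 3 Control KD libraries for the 10 Zfp genes of smallest p in each direction, 1 point per library, Paupar KD above Control KD in each row. The groups lie apart in every row except that of Zfp324, which the choice by smallest p favours. In edgeR 0 of these genes passed an adjusted p of 0.05.

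Grouped by role, the lists of genes with a known function held 0 genes past the adjusted threshold in edgeR, with 0 higher and 4 lower at an unadjusted p under 0.05, and DESeq2 called 1 of them lower, Zfp238. Over all genes 9.63% were higher and 8.11% lower at that unadjusted p, and DESeq2 called 1.82% lower. The silencing list holds KRAB proteins that guard genomic imprints and retroelements. Of its 6 genes, 4 were above the minimum, with 1 positive and 3 negative log2 fold changes. Zfp809, which silences retroviral DNA in mouse embryonic cells, stood at 11.1, 13.6 and 12.9 CPM in Paupar KD and at 14.6, 15.7 and 15.2 CPM in Control KD (log2 fold change -0.27, edgeR adjusted p 0.282). Zfp932, a repressor of endogenous retroviruses, stood at 14.7, 14.1 and 11.1 CPM in Paupar KD and at 15.9, 16.4 and 17.2 CPM in Control KD (-0.32, adjusted p 0.271 in edgeR). Neither gene overlapped between the groups, and 13.3% of all genes tested were likewise lower without overlap.

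The other two genes of that list overlapped. Zfp568 stood at 272, 273 and 176 CPM in Paupar KD and at 210, 232 and 240 CPM in Control KD, so that Paupar KD held both the highest and the lowest library. Zfp445 stood at 100.3, 116 and 104 CPM in Paupar KD and at 107, 110 and 115 CPM in Control KD. Zfp57, which acts with Zfp445 in imprint maintenance, had no count in any library, and Zfp708 was below the minimum at 1.42 to 2.05 CPM in Paupar KD and 1.62 to 1.90 CPM in Control KD.

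Of the 7 genes that act on RNA and translation, 6 were above the minimum, with 2 positive and 4 negative log2 fold changes, or 4 positive and 2 negative under upper-quartile scaling, where Zfp326 and Zfp346 changed sign, and both of these and Zfp598 also changed sign with 1 library left out. The remaining gene was not analysed here. Zfp36 (tristetraprolin), which speeds the decay of messages with AU-rich elements, stood at 11.1, 11.1 and 17.9 CPM in Paupar KD and at 18.1, 17.3 and 16.8 CPM in Control KD. Replicate 3 of Paupar KD lay within the Control KD range and the other libraries of its group lay well below it (log2 fold change -0.38, edgeR adjusted p 0.332). Without that replicate the log2 fold change was -0.65 and the edgeR adjusted p 0.0162. That fit leaves out the only Paupar KD library within the Control KD range, and it called 5.67% of all genes lower. Zfp106, an RNA-binding protein needed for motor function in mice, stood at 186, 296 and 405 CPM in Paupar KD and at 349, 364 and 378 CPM in Control KD. Zfp326, Zfp346, Zfp598 and Zfp622 had log2 fold changes between -0.01 and 0.07 and overlapping groups.

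Chromatin complex genes numbered 10, of which 9 were above the minimum, with 3 positive and 6 negative log2 fold changes and overlap between the groups in all 9. Zfp609, which works with the cohesin loader Nipbl, stood at 57.6, 72.9 and 93.6 CPM in Paupar KD and at 91.5, 96.5 and 102 CPM in Control KD (log2 fold change -0.37, edgeR adjusted p 0.283). Zfp410, an activator of Chd4, stood at 62.9, 58.7 and 54.2 CPM in Paupar KD and at 57.1, 57.9 and 58.0 CPM in Control KD. Its groups overlapped, and so did those of Zfp462 and Zfp644, which act with the histone methyltransferases G9a and GLP. The log2 fold changes of the 9 ran from -0.37 to 0.10.

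The 4 development genes and the 7 general factors measured all had negative log2 fold changes with all 6 libraries and TMM scaling, but Zfp207 was at 0.026 under upper-quartile scaling, and Zfp207, Zfp503 and Zfp703 reached 0.14, 0.011 and 0.037 with 1 library left out. Beside Zfp238, the development list held Zfp521, a regulator of neural and fat cell fate, at 9.61, 10.7 and 8.75 CPM in Paupar KD and 10.99, 11.5 and 13.3 CPM in Control KD (log2 fold change -0.30, edgeR adjusted p 0.290). Zfp503 and Zfp703, related corepressors without a canonical C2H2 motif, overlapped between the groups at -0.14 each. Zfp536 had no count in any library, and Zfp423 was at 0.0978 CPM at most.

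Of the general factors, 3 of 7 were lower without overlap between the groups, as were 13.3% of all genes. Zfp143, which binds promoters of small nuclear RNA and many other genes, stood at 17.5, 17.3 and 20.6 CPM in Paupar KD and at 22.9, 21.7 and 23.2 CPM in Control KD (log2 fold change -0.29, edgeR adjusted p 0.246). Zfp384 stood at 49.1, 45.7 and 47.7 CPM in Paupar KD and at 55.0, 52.0 and 57.7 CPM in Control KD (-0.21, adjusted p 0.264 in edgeR). Zfp91, a ubiquitin ligase of the noncanonical NF-kappaB pathway, stood at 190, 274 and 286 CPM in Paupar KD and at 299.7, 319 and 303 CPM in Control KD, and it shares exon bases with Cntf on the same strand. In Zfp91 most of the distance came from replicate 1. Zfp207, a spindle assembly protein, stood at 207, 159 and 131 CPM in Paupar KD and at 162, 167 and 170 CPM in Control KD, with a log2 fold change of -0.01.

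The genes with the widest range among the Paupar KD libraries showed how far those libraries differed. Zfp106, given above, had its 3 Paupar KD libraries on both sides of Control KD. Zfp704 stood at 67.1, 114 and 150 CPM in Paupar KD and at 122, 122 and 137 CPM in Control KD. Zfp458 stood at 2.06, 4.99 and 4.29 CPM in Paupar KD and at 3.59, 4.22 and 5.34 CPM in Control KD. In all 3 genes replicate 1 was the lowest of the 6 libraries.

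By protein structure, 148 of the genes encoded a KRAB-A box, 121 had C2H2 motifs without one, 8 had no C2H2 motif, and 2 could not be matched to a protein by symbol. KRAB genes had a median log2 fold change of -0.07, with 52 positive and 96 negative, 5 higher and 12 lower at an unadjusted p under 0.05. C2H2 genes without KRAB had a median of -0.04, with 47 positive and 74 negative, 4 higher and 11 lower. In percent that is 3.38% higher and 8.11% lower for KRAB genes and 3.31% higher and 9.09% lower for the others, against 9.63% and 8.11% of all genes, so the shares lower were near the background. Both medians were negative, and the difference between the classes was not tested. The 8 genes without a C2H2 motif, among them Zfp185, Zfp36 and Zfp259, had a median of -0.11 with 3 positive and 5 negative.

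By the number of finger motifs, the median log2 fold change was -0.03 for the 49 genes with 1 to 5, -0.05 for the 84 with 6 to 10, -0.07 for the 89 with 11 to 15 and -0.08 for the 47 with 16 or more. As log2 differences from the Control KD mean, the medians in the same order were 0.024, -0.090, -0.079 and -0.142 in Paupar KD replicate 1. They were -0.029, -0.001, -0.059 and -0.021 in replicate 2, and -0.054, -0.030, -0.048 and -0.020 in replicate 3. The order over the finger numbers was thus not shared by replicates 2 and 3. No test was made between these medians.

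Zfp genes lay on each of chromosomes 1 to 19 and on X, and the most, 72, were on chromosome 7. There, 36 log2 fold changes were positive and 36 negative, with a median of 0.01, and 6 genes were higher and 1 lower at an unadjusted p under 0.05. On all other chromosomes, there were 205 Zfp genes, 66 with a positive and 139 with a negative value, a median of -0.08, and 3 higher and 23 lower. The 920 other tested genes on chromosome 7 had a median of 0.04, with 509 positive and 411 negative. At the same unadjusted p, 8.33% of the Zfp genes on chromosome 7 were higher and 1.39% lower, against 9.57% and 7.93% of the other genes there. Of the Zfp genes elsewhere 1.46% were higher and 11.2% lower, against 9.63% and 8.11% of all genes tested. Chromosome 7 was not alone in a positive Zfp median. The median was also positive on chromosomes 6 (0.06, 16 genes), 14 (0.07, 3 genes) and 15 (0.02, 9 genes). It was negative on each of the remaining chromosomes. The difference between chromosome 7 and the rest was seen in the data and was not tested.

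Where neighbouring Zfp genes lay within 500 kb of each other they were joined into clusters. Of the 277 genes with a position, 96 had no other Zfp gene within that distance. There were 12 clusters of at least 5 genes, holding 108 genes, and 6 of the clusters with 50 genes were on chromosome 7. The largest, on chromosome 17 from 21145905 to 23736454, held 19 genes, 18 of them KRAB genes and Zfp944 among them. Its median log2 fold change was -0.13, 0 genes were higher without overlap and 5 (26.3%) were lower, against 13.7% and 13.3% of all genes. A cluster of 5 KRAB genes on chromosome 8, from 71750242 to 72315077 and including Zfp930, had 5 negative values and a median of -0.12.

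The second largest cluster lies on chromosome 7 from 30553571 to 30954746 and holds 13 genes, among them Zfp568, Zfp790 and Zfp146. Its median was 0.06, with 2 genes (15.4%) higher at an unadjusted p under 0.05 and 0 lower. Over all genes tested 9.63% were higher and 8.11% lower at that p. Another cluster on chromosome 17, from 32908181 to 33768724, held 10 genes with a median of -0.08, and in it Zfp870 was higher and Zfp101 lower, so neighbours differed in direction. Over the 12 clusters the median ran from -0.14 to 0.14, and both of these extremes came from chromosome 7. Genes of 1 cluster can share sequence, and reads from near-identical copies may have been divided between them.

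**Figure D4:**
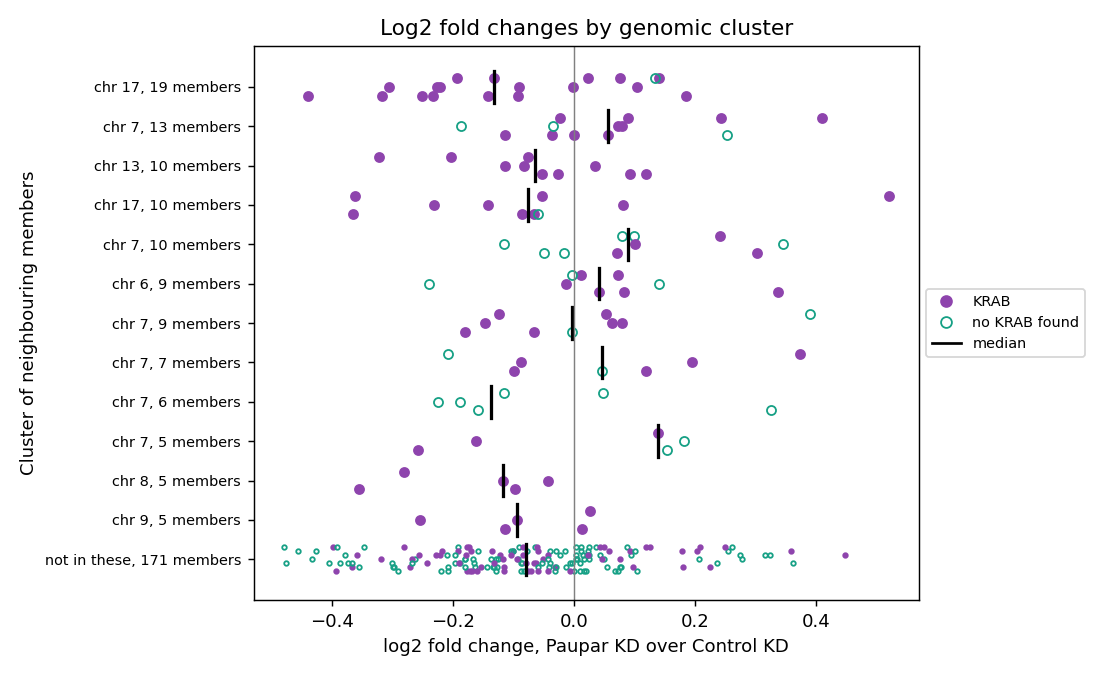
Log2 fold change (Paupar KD over Control KD) of each Zfp gene in the 12 clusters of at least 5 neighbouring genes, filled for KRAB genes and open for the others, with a line at the median of each cluster. Medians run from -0.14 to 0.14, and genes of both signs stand in every cluster except the 5 genes on chromosome 8.

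The partners of KRAB proteins gave a similar picture. Of 20 genes of the KAP1 and HUSH silencing machinery and of DNA methylation, 19 were tested, with 7 positive and 12 negative log2 fold changes and 0 past the adjusted threshold in edgeR. Trim28 itself, the gene of KAP1, stood at 418, 356 and 309 CPM in Paupar KD and at 336, 328 and 366 CPM in Control KD (adjusted p 0.781 in edgeR), and Paupar KD lay on both sides of Control KD. Setdb1 stood at 61.2, 65.1 and 51.9 CPM in Paupar KD and at 62.0, 60.3 and 68.0 CPM in Control KD. The only gene of the list at an unadjusted p under 0.05 was Dnmt3b, a de novo DNA methyltransferase. It stood at 8.37, 7.87 and 7.59 CPM in Paupar KD and at 13.2, 14.4 and 11.8 CPM in Control KD (log2 fold change -0.73 ± 0.13, SE, edgeR adjusted p 0.0840, DESeq2 adjusted p 0.000706). At that unadjusted p 5.26% of the list was thus lower and 0% higher, against 8.11% and 9.63% of all genes tested. At the adjusted threshold edgeR called 0.0383% of all genes higher and 0.00767% lower, and DESeq2 called 1.82% lower.

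Other zinc finger families, held to the same minimum, also had 0 genes past the adjusted threshold in edgeR. The median log2 fold change was -0.00 for 33 Zbtb genes, -0.05 for 16 Zfp genes with a letter in the suffix and 0.08 for 17 Zkscan, Zscan, Zik and Zim genes. It was -0.13 for 16 Klf and Sp genes, -0.04 for 17 Zc3h genes and -0.12 for 20 Zdhhc genes, which carry a zinc-binding domain but are palmitoyltransferases. At an unadjusted p under 0.05 these 6 families had 6 genes higher and 9 lower, and DESeq2 called 1 of the suffixed Zfp genes and 1 Zdhhc gene higher. Over all genes 9.63% were higher and 8.11% lower at that unadjusted p, and DESeq2 called 2.15% higher. The Zfp median of -0.06 lay inside the range of these families.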

How the data were processed

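RNA of MIN6 cells was made into Illumina TruSeq libraries, 3 Paupar KD and 3 Control KD. The submitters' processing notes name HISAT2, HTSeq, DESeq2 and CASAVA 1.8.2 and the mouse build mm9. What each tool did, which annotation was counted and whether strand was used are points not given in the sources used here. The authors deposited raw read counts per gene symbol for each library. From these counts edgeR 4.0.16 in R 4.3.3 was run over all genes after filterByExpr (minimum count 10, smallest group 3), with TMM scaling, the robust quasi-likelihood test and Benjamini-Hochberg adjustment over 13039 genes at 0.05. DESeq2 1.42.0 and limma 3.58.1 (voom) were alternatives. The standard error is the log2 fold change divided by the square root of F. CPM uses TMM-scaled library sizes, except for the minimum of 3, taken on raw totals. Library totals ran from 16973622 to 28693863 counts, which limits precision for genes near the minimum.

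Positions, exon lengths and proteins came from GENCODE M1 on mm9, matched by symbol for 277 of the 279 genes. A C2H2 motif was 2 cysteines and 2 histidines at canonical spacing, and a KRAB-A box was a hit of a profile built from 86 windows of 40 residues at an E-value of 1e-05. Exon bases were shared with another annotated gene in 53 of the genes, and copies of one another may share reads, so their counts are uncertain. The test was tried on simulated counts beforehand. Genes were named by rule: the 10 of smallest p in each direction, the 5 highest by CPM and by CPM per kilobase, the 3 on each side of the minimum, the 3 of widest range in Paupar KD, and 5 lists by role. Zfp800 and Zfp871 were named after their values were seen. The members and lists were chosen with earlier results of these data known. The setting of all tested genes of at least 3 mean CPM beside the Zfp genes was chosen after seeing the data. No 2 libraries of 1 group agreed within sampling noise, and each was counted as 1 replicate. That does not show that they came from separate cultures. The labels name no batch.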

Additional observations from a re-analysis of the deposited data

How the results depend on the processing

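The median log2 fold change of the Zfp genes stayed negative under every alternative run, at -0.03 with upper-quartile scaling (where the median of all genes was 0.03), -0.07 and -0.06 with minimums of 1 and 10 mean CPM, and -0.09 to -0.04 with 1 library left out. Genes called at an adjusted p under 0.05 numbered 0 higher and 0 lower, but 1 and 3 with DESeq2, and 0 to 3 higher and 0 to 8 lower with 1 library left out. Leaving out replicate 1 of Paupar KD gave 1 and 1, where 0.934% of all genes were called higher and 0.972% lower. Leaving out its replicate 3 gave 3 and 8, where 4.65% of all genes were called higher and 5.67% lower. At an unadjusted p under 0.05, 10 were higher and 24 lower, with 14 and 17 under upper-quartile scaling, and with 4 to 21 higher and 8 to 33 lower when 1 library was left out. The count of higher genes was 4 without Control KD replicate 2 and 21 without Paupar KD replicate 3. The count of lower genes was 10, 9 and 8 without Control KD replicates 1, 2 and 3. The shares of all genes at an unadjusted p under 0.05 are not given for these alternative fits. Whether the Zfp genes moved more than other genes therefore cannot be read from these counts. The cause of these moves was not tested.

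Replicate numbers did not pair the libraries (correlations of same-numbered deviations 0.07, -0.01 and 0.01). With the replicate block, 0 genes passed the adjusted threshold, 11 were higher and 25 lower at an unadjusted p under 0.05, and the median was -0.07.

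In all 15 alternative fits the sign held for 40 of 56 genes named. Upper-quartile scaling turned Zfp326 to 0.026, Zfp346 to 0.015 and Zfp207 to 0.026. With 1 library left out, 16 changed sign, with these ranges: Zfp367 -0.17 to 0.035, Zfp568 -0.028 to 0.26, Zfp664 -0.043 to 0.082, Zfp598 -0.079 to 0.13, Zfp704 -0.48 to 0.055, Zfp458 -0.45 to 0.065, Zfp30 -0.088 to 0.29, Zfp953 -0.051 to 0.15, Zfp326 -0.046 to 0.045, Zfp346 -0.066 to 0.019, Zfp410 -0.037 to 0.077, Zfp462 -0.029 to 0.041, Zfp644 -0.14 to 0.11, Zfp503 -0.36 to 0.011, Zfp703 -0.28 to 0.037 and Zfp207 -0.20 to 0.14.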
